A study of Mus musculus with 40 samples.

Results

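Mechanical strain genes of the sarcomere, the contractile unit of striated muscle, are described here across resting, exercised and wheel-trained mouse muscle. They are Ankrd1, Ankrd2, Xirp1, Xirp2, Flnc, Csrp3, Abra and Nrap, 8 of the 23621 genes in the table. They were chosen by name, for their known place at the Z-disc, the titin filament or the muscle end, with earlier results of these data known. Counts of members beside the share over all genes are therefore descriptions. All 8 passed the filter on low counts in both tissues. On mouse assembly GRCm38.p6, Ankrd1 (gene identifier 107765) lies at chr19:36111965-36119844, Ankrd2 (56642) at chr19:42035917-42045111 and Nrap (18175) at chr19:56320037-56390062. Xirp1 (22437) lies at chr9:120013755-120023598, Xirp2 (241431) at chr2:67446000-67526620 and Flnc (68794) at chr6:29433153-29461889. Csrp3 (13009) lies at chr7:48830398-48848051 and Abra (223513) at chr15:41865293-41869720.

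The sarcomere carries load from actin and titin through the Z-disc to the membrane and the tendon, and muscle answers stretch, contraction and fibre damage by making more of the proteins at these joints. The muscle ankyrin repeat proteins Ankrd1 and Ankrd2 bind the elastic part of titin and can also enter the nucleus. The Xin proteins Xirp1 and Xirp2 bind actin, and filamin C, the product of Flnc, crosslinks actin and is itself unfolded by tension and cleared with the help of the co-chaperone Bag3. Csrp3, the muscle LIM protein, sits at the Z-disc, Nrap anchors actin at the muscle end and in growing myofibrils, and Abra, also called STARS, binds actin and frees the coactivator MRTF to act with the transcription factor SRF.

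The study sequenced poly(A) RNA of C57BL/6 mouse muscle, 40 libraries in 12 groups, with no genetic change named for any group. Quadriceps came from sedentary mice at zeitgeber time (ZT, hours from lights on) 0, 4, 12 and 16, and from mice run to exhaustion on a treadmill, in sessions at ZT0 and ZT12, and sampled directly (+0h) or 3 h afterwards (+3h), with 3 libraries per group. Gastrocnemius came from mice given a wheel either in the dark or in the light phase (night and day wheel) and sampled at ZT4 and ZT16, with 4 libraries per group and no group without a wheel. Both muscles are described as glycolytic. Each comparison asked how a run, the clock time or the wheel schedule moved these genes. The control for +0h was the sedentary group of the session's own ZT, and for +3h that of ZT4 or ZT16.

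Library totals ran from 27352875 to 79491649 estimated counts. Fast fibre markers summed to between 126764 and 191275 CPM, read counts scaled to a common library size, in quadriceps and slow fibre markers to between 93.8 and 2687, against 140227 to 167320 and 585 to 2099 in gastrocnemius. Heart markers summed to at most 10.3 CPM in quadriceps, with the atrial gene Nppa at 0 in all 24 libraries. In gastrocnemius they reached 30.2 CPM in day wheel ZT16 replicate 4, where Nppa read 11.5 CPM, and stayed at or under 6.33 in the others. One quadriceps library stood apart for the strain genes: +3h ZT0 replicate 1 was the highest of its 3 for 8 of 8 members. The same library had the highest summed markers of its group for slow fibres (1872 CPM, against 93.8 and 338), for the myotendinous junction and tendon (941 against 290 and 625) and for fibroblasts (1771 against 973 and 1090). It was also highest for satellite cell and regenerating fibre, macrophage, endothelial, erythroid and heart markers. For fast fibre (148980 against 167121 and 155823), neutrophil and adipocyte markers it was lowest, and for smooth muscle and pericyte markers it lay between. The part of these cells in the results was not tested. The members' fold changes at +3h of the ZT0 session are given with and without the library. Correlations between genes are given only with it. In whole muscle, fewer cells of a type and less RNA per cell cannot be told apart.

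Per length of the longest coding transcript, Nrap and Xirp2 were the most abundant of the 8 in sedentary quadriceps, with median levels of 229 and 158 CPM per kilobase over 12 libraries. Flnc followed at 73.5, then Ankrd2 at 48.2, Abra at 34.3, Csrp3 at 25.9 and Xirp1 at 24.2. Ankrd1 was the lowest, at 2.89 (range 1.43 to 5.23). The spread between sedentary libraries was widest for Csrp3, from 8.01 to 63.2 CPM per kilobase, and for Ankrd2, from 17.6 to 128, and narrow for Xirp2, from 149 to 183. In the 16 gastrocnemius libraries Nrap (290) and Xirp2 (140) again had the highest medians and Ankrd1 (3.22) the lowest.

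The members responded to the run at 3 h more than at its end. At +0h of the ZT0 session none of the 8 passed (adjusted p at or above 0.14), where 6.82% of the 15097 genes tested did. At an unadjusted p under 0.05 there were 3, and DESeq2 also called 0. At +0h of the ZT12 session Abra and Xirp1 rose, 2 of 8, where 3.19% of genes rose. At +3h of the ZT0 session Ankrd1, Xirp1, Xirp2, Flnc, Abra and Nrap rose, 6 of 8, where 6.96% of genes rose, and the median log2 fold change of the 8 was 1.65 against -0.005 over all genes tested. Without +3h ZT0 replicate 1, 4 of 8 rose, where 5.74% of genes did, and the median was 0.82 against -0.012. At +3h of the ZT12 session Ankrd1, Xirp1 and Flnc rose, 3 of 8, where 8.70% of genes rose, with a median of 1.14 against -0.003. No member fell in these 4 comparisons. The plot of fold changes after the run gives all 32 values with their errors.

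**Figure D1:**
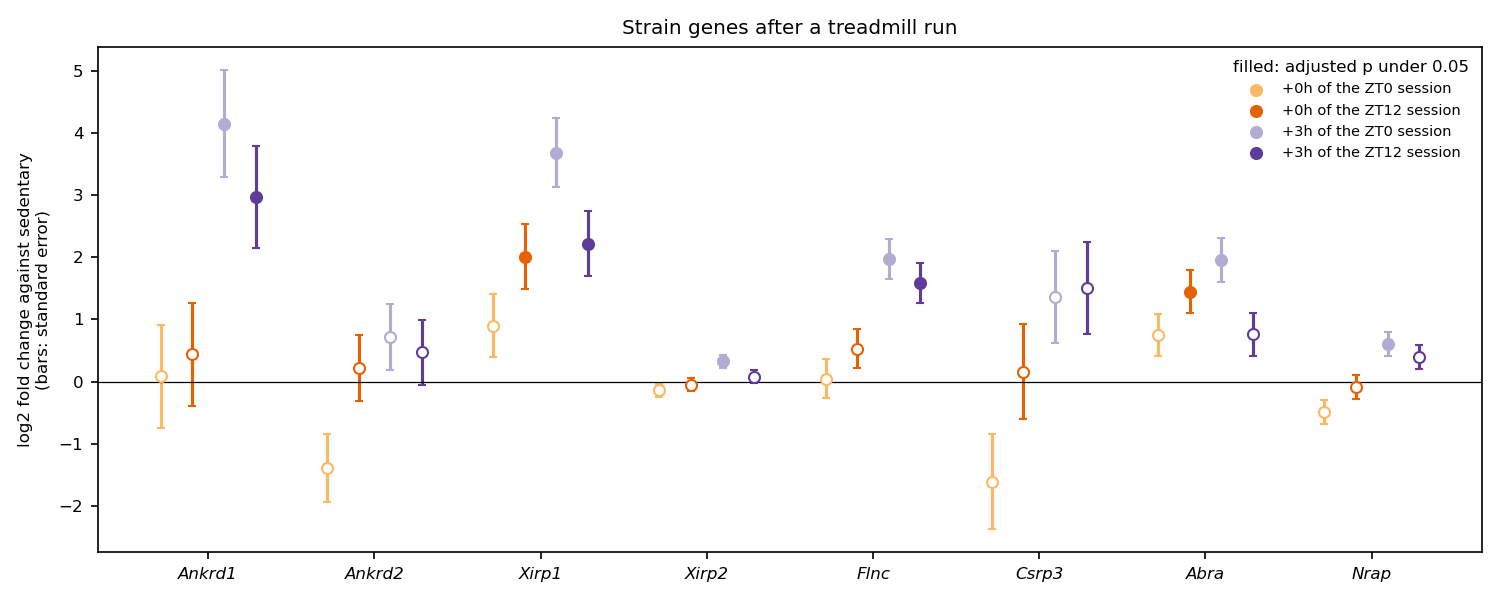
Log2 fold change of the 8 strain genes against sedentary quadriceps (y axis, bars are standard errors, 3 libraries per group) for each gene (x axis) at +0h and +3h of both sessions. Filled points passed at an adjusted p under 0.05, and the largest values are those of Ankrd1 and Xirp1 at +3h, from 2.22 to 4.15.

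Ankrd1 moved over the widest range, from 2.89 to 321 CPM in quadriceps. At +3h after the ZT0 run the libraries stood at 321, 55.1 and 11.2 CPM (replicates 1 to 3), against 7.52, 9.16 and 5.07 in sedentary ZT4 muscle. All libraries of the +3h group lay above the controls, but they differed 28.7-fold among themselves, and the lowest was close to the sedentary range. The rise was 4.15 on the log2 scale (SE 0.863, adjusted p = 0.0041), and without replicate 1 it was 2.20 (adjusted p = 0.026). After the ZT12 run the +3h libraries held 20.7, 49.8 and 71.2 CPM, against 6.37, 6.13 and 5.54 in sedentary ZT16 muscle, again with no overlap (2.97, SE 0.826, adjusted p = 0.019). That call was lost without +3h replicate 3 (2.55, adjusted p = 0.073) and without any one sedentary ZT16 library (2.92 to 3.01, adjusted p from 0.061 to 0.063). At the end of the runs Ankrd1 had not left the sedentary range, with 6.96, 6.78 and 4.63 CPM (ZT0 run) and 6.70, 9.19 and 5.72 CPM (ZT12 run).

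Of the 8 members, 6 have a promoter window in the RefSeq table (GRCm38.p6, 250 bases before to 50 after a start site, written on the gene's strand). Flnc and Csrp3 have 2, and Xirp1 and Abra have none. Printed are the windows of Ankrd1 and Flnc, which rose at +3h of both sessions, and, for contrast, that of Xirp2, whose log2 fold changes against sedentary muscle at +3h were 0.33 and 0.08. Capitals mark matches on either strand to the MCAT element bound by TEAD factors (CATTCC, in Ankrd1 and Flnc), to the heat shock element (TTCNNGAA or GAANNTTC, in Ankrd1), to the AP-1 site (TGANTCA) and to the MEF2 site (both in Xirp2).
Ankrd1, chr19:36119795-36120094, minus strand: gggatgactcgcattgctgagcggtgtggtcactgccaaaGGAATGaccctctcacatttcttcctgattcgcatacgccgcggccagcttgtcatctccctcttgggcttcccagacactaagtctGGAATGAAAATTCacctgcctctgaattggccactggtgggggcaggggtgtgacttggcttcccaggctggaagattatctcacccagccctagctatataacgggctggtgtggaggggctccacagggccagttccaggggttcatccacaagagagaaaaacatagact
Flnc, chr6:29433006-29433305, plus strand: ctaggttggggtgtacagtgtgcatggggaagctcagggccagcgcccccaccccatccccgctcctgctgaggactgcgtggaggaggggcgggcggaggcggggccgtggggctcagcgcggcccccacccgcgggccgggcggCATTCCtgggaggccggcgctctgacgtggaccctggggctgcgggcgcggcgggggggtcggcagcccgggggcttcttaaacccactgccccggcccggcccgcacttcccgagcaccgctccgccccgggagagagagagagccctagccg
Xirp2, chr2:67445752-67446051, plus strand: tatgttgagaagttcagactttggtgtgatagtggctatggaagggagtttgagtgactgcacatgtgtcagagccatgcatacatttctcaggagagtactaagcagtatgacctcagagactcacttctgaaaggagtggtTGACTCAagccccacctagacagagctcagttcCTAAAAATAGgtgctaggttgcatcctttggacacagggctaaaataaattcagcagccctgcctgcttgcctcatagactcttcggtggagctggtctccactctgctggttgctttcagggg
In Ankrd1 the MCAT letters stood at -210 to -205 and at -123 to -118 from the start site, and the second match overlapped a heat shock match at -118 to -111 by 1 base. In Flnc they stood at -104 to -99 of the window printed, which is the same site as -1 to 5 of its other start. Of all 32851 windows, 14.7% held an MCAT match, 15.1% a heat shock match, 7.81% an AP-1 match and 3.19% a MEF2 match. The CArG box, the letters bound by SRF, was in none of the windows of the 6 members and in 1.63% of all. Xirp1 and Abra, without a window, could not be searched. The second Csrp3 window also held a heat shock match. An E-box (CANNTG) was in 5 of the 6 members and in 72.3% of all windows. These are matches of letters, and binding was not measured.

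Ankrd2, the relative of Ankrd1 with its highest levels in slow fibres, did not pass at either time. Its +3h values were 176, 38.5 and 69.4 CPM after the ZT0 run, against 66.3, 49.8 and 56.3 in sedentary ZT4 muscle, and the groups overlapped (log2 fold change 0.72, SE 0.531, adjusted p = 0.43). Without +3h replicate 1 the value was -0.09 (adjusted p = 0.93). After the ZT12 run they were 130, 133 and 137 CPM, against 89.3, 146 and 53.4 (0.47, adjusted p = 0.62). The 3 libraries of that run group lay within 1.06-fold of each other, inside a sedentary range that was wide.

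Xirp1 came second to Ankrd1 in log2 fold change at +3h of both sessions with all libraries included, and above it (2.54 against 2.20) without +3h ZT0 replicate 1. Its levels 3 h after the ZT0 run were 3766, 1112 and 508 CPM, against 137, 138 and 144 in sedentary ZT4 muscle, so that even the lowest library lay far above tightly grouped controls. The log2 fold change was 3.68 (SE 0.554, adjusted p = 3.1e-04), and 2.54 without replicate 1 (adjusted p = 4.4e-04). Those after the ZT12 run were 657, 1151 and 1491 CPM, against 188, 246 and 274 (2.22, SE 0.521, adjusted p = 0.0066). Unlike Ankrd1, it was already above the controls at the end of the ZT12 run, at 388, 230 and 277 CPM against 71.4, 73.9 and 76.7 in sedentary ZT12 muscle (2.01, SE 0.518, adjusted p = 0.033). That early call did not survive leaving out +0h replicate 1 (1.78, adjusted p = 0.12), +0h replicate 3 (2.06, adjusted p = 0.056) or any one of the 3 sedentary libraries (1.99 to 2.04, adjusted p from 0.080 to 0.13). Set against sedentary ZT16 muscle instead, the difference was 0.34 (adjusted p = 0.76). The end of the ZT0 run gave 354, 452 and 227 CPM against 217, 121 and 214, without overlap, and did not pass (0.90, SE 0.503, adjusted p = 0.30).

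Xirp2, though of the same family, hardly moved. After the ZT0 run the +3h libraries held 2792, 2172 and 1988 CPM against 1857, 1790 and 1888, a rise of 0.33 on the log2 scale (SE 0.105, adjusted p = 0.042). Without +3h replicate 1 the value was 0.17 (adjusted p = 0.26), and the call was also lost without +3h replicate 2 (0.37) or any one sedentary ZT4 library (0.31 to 0.35). After the ZT12 run they held 2112, 2184 and 2052 against 1952, 2070 and 2001 CPM, with overlap (0.08, adjusted p = 0.69).

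Flnc rose at +3h of both sessions and kept both calls with any library left out. At 3 h it had reached 4269, 1992 and 1239 CPM after the ZT0 run, against 658, 577 and 671, and 1630, 2743 and 2818 after the ZT12 run, against 748, 930 and 717. No library of either run group overlapped its controls. The log2 fold changes were 1.98 (SE 0.322, adjusted p = 5.7e-04) and 1.59 (SE 0.318, adjusted p = 0.0020). Without +3h ZT0 replicate 1 the first was 1.35 (adjusted p = 0.0010). At the end of the runs the log2 fold changes were 0.05 and 0.53 (adjusted p = 0.94 and 0.42). In the ZT12 session the 3 +0h libraries, at 884, 690 and 646 CPM, nevertheless lay above the sedentary ones, at 479, 496 and 568.

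**Figure D2:**
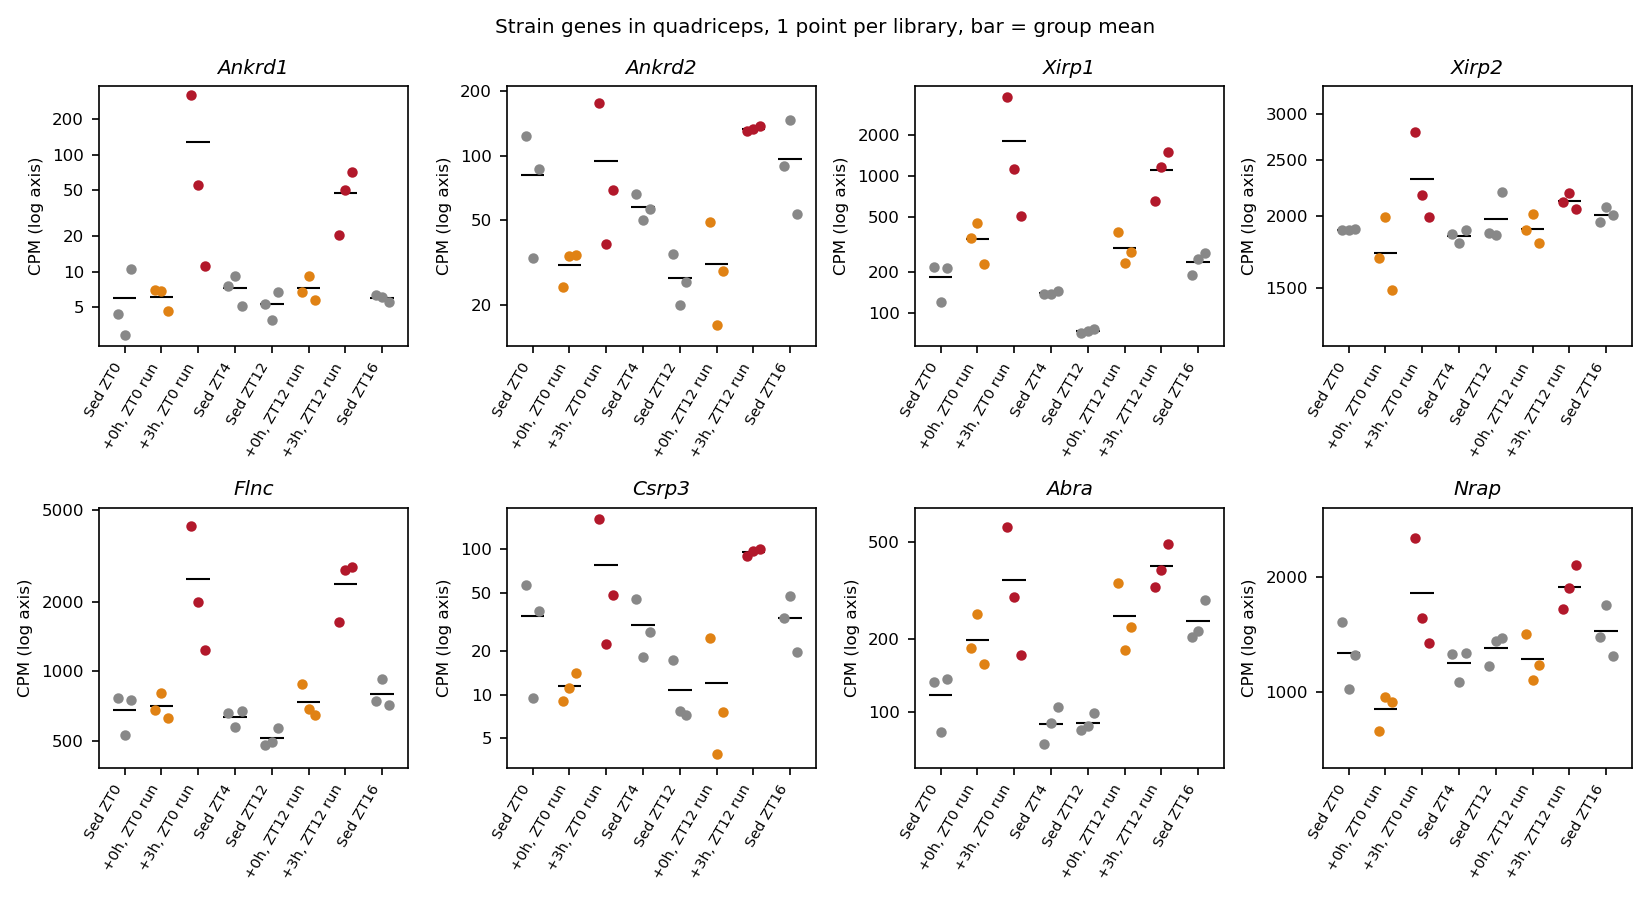
CPM (y axis, log scale, a different range in each panel) of each strain gene in the 24 quadriceps libraries by group (x axis), with grey for sedentary, orange for +0h and red for +3h, and a bar at each group mean. Ankrd1, Xirp1 and Flnc are high in the +3h groups, with the top point of +3h ZT0 (321 CPM for Ankrd1) from replicate 1, while Xirp2 stays between 1486 and 2792 CPM.

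Csrp3 had large but scattered values. The libraries taken 3 h after the ZT12 run lay at 90.4, 96.8 and 101 CPM, against 33.5, 47.5 and 19.7 in sedentary ZT16 muscle, with no overlap, and did not pass (log2 fold change 1.51, SE 0.741, adjusted p = 0.19). It passed when only these groups were fitted (1.51, adjusted p = 0.048) and with sedentary ZT12 as control (3.16, adjusted p = 0.010). After the ZT0 run the +3h values were 162, 22.5 and 48.6 against 45.4, 18.1 and 26.9 CPM (1.36, adjusted p = 0.27; 0.23 without replicate 1). The +0h values of that session were 9.0, 11.2 and 14.1 against 56.8, 9.44 and 37.5 CPM (-1.61, adjusted p = 0.22). Libraries of 1 group differed up to 6.02-fold in sedentary muscle and up to 7.20-fold after a run.

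Nrap rose little. The +3h libraries of the ZT0 run held 2532, 1561 and 1341 CPM against 1257, 1057 and 1261, without overlap, a log2 fold change of 0.60 (SE 0.195, adjusted p = 0.045). The call was lost without replicate 1 (0.28, adjusted p = 0.29), without any one sedentary ZT4 library (0.52 to 0.65) and with either sequencing lane alone (0.59 and 0.61). Those of the ZT12 run held 1644, 1866 and 2144 against 1393, 1687 and 1243 CPM, and Nrap did not pass (0.39, adjusted p = 0.19). At the end of the ZT0 run the 3 libraries, at 790, 970 and 940 CPM, lay below the sedentary ZT0 libraries, at 1518, 1016 and 1248, but this difference did not pass (-0.49, SE 0.194, adjusted p = 0.14).

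Abra differed between the sedentary times of day as well as after the run, and the cause of the sedentary difference was not tested. Its level 3 h after the ZT0 run was 576, 296 and 172 CPM, against 74.2, 90.7 and 105 (log2 fold change 1.95, SE 0.353, adjusted p = 0.0014; 1.38 without replicate 1, adjusted p = 0.0067). The +0h libraries of the ZT12 run held 339, 181 and 223 against 84.8, 88.3 and 99.6 CPM in sedentary ZT12 muscle (1.45, SE 0.348, adjusted p = 0.023). Those run values overlapped the sedentary ZT16 values of 204, 216 and 289 CPM, against which the difference was 0.07 (adjusted p = 0.94). The call was also lost without +0h replicate 1 (1.15), sedentary ZT12 replicate 1 (1.40) or replicate 2 (1.43). The +3h libraries held 328, 383 and 488 CPM, all above sedentary ZT16, and did not pass (0.76, SE 0.343, adjusted p = 0.15). When only these groups were fitted the value was 0.75 (adjusted p = 0.048), while against sedentary ZT12 the same libraries gave 2.14 (adjusted p = 4.0e-04).

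The +3h calls of the ZT0 session were made only with all quadriceps groups in the fit, and the cause of this was not tested. When the 6 libraries of the ZT0 comparison were fitted alone, none of the 8 members passed, although the fold changes stayed the same (Ankrd1 4.15, adjusted p = 0.19; Xirp1 3.68, 0.096; Flnc 1.97, 0.099; Abra 1.95, 0.10). In the ZT12 comparison such a fit called 5, without a share over all genes from that fit to set beside it. Between sessions, 0 of 8 members passed in the test of the difference at +0h or at +3h in edgeR or DESeq2, with 1 at an unadjusted p under 0.05 in each. Over all genes 0% passed for +0h and 1.59% for +3h. The largest differences at +3h, ZT12 minus ZT0, were those of Xirp1 (-1.46, SE 0.708) and Abra (-1.20, SE 0.484), and without +3h ZT0 replicate 1 they were -0.32 and -0.62. Leaving it out changed the sign of the difference for Ankrd1 (from -1.18 to 0.78), Ankrd2 (from -0.25 to 0.56), Flnc (from -0.39 to 0.24) and Nrap (from -0.22 to 0.10).

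Set directly against the end of the run, +3h muscle had more of 6 members in each session, where 6.33% and 7.28% of genes were higher. In the ZT0 session these were Ankrd1 (log2 fold change 4.38, adjusted p = 0.0030), Csrp3 (2.78, 0.027), Xirp1 (2.38, 0.0056), Flnc (1.82, 9.3e-04), Nrap (1.01, 0.0017) and Xirp2 (0.43, 0.0091). Without +3h ZT0 replicate 1, Ankrd1 gave 2.42, Xirp1 1.23, Flnc 1.19 and Nrap 0.69, which still passed, while Csrp3 (1.65) and Xirp2 (0.27) did not. Csrp3 was also lost without any one +0h library (2.62 to 2.94), and Xirp2 without +0h replicate 3 (0.33). None passed in the fit of these 6 libraries alone. In the ZT12 session they were Csrp3 (3.00, adjusted p = 0.015), Ankrd1 (2.71, 0.032), Ankrd2 (2.09, 0.015), Xirp1 (1.88, 0.018), Flnc (1.70, 0.0012) and Nrap (0.63, 0.033). Leaving out +0h ZT12 replicate 2 or replicate 3 left 1 call, that of Flnc, and leaving out +3h ZT12 replicate 3 left 3. Without +0h replicate 1 the value of Csrp3 was 4.07. Abra did not pass in either session (0.81 and 0.69). These comparisons share the +3h libraries with those above.

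Among sedentary mice 1 of 8 members differed between times of day, a share no higher than the 17.1% of all genes that did. This was Abra (adjusted p = 0.015 over the 4 sedentary groups). The call was lost without sedentary ZT16 replicate 3 (adjusted p = 0.072), and DESeq2 called 3 members, Abra, Ankrd2 and Xirp1. Abra read 133, 82.9 and 137 CPM at ZT0, 74.2, 90.7 and 105 at ZT4, 84.8, 88.3 and 99.6 at ZT12, and 204, 216 and 289 at ZT16. ZT16 alone lay above all others, and the other 3 groups overlapped. Against ZT4 the rise at ZT16 was 1.39 (SE 0.348, adjusted p = 0.021), the 1 call of 8 where 3.49% of genes rose, and it was lost without sedentary ZT4 replicate 1 (1.27) or replicate 2 (1.40) or sedentary ZT16 replicate 3 (1.22). Between ZT12 and ZT0 no member passed in edgeR, where 16.1% of genes did, with 3 at an unadjusted p under 0.05 and 2 in DESeq2. Xirp1 was lower in every ZT12 library (71.4, 73.9 and 76.7 CPM) than in any at ZT0 (217, 121 and 214), with a log2 difference of -1.32 (SE 0.508, adjusted p = 0.088; DESeq2 -1.31, adjusted p = 0.042). The ZT12 libraries are the control of the +0h ZT12 comparison, so a low control and a high run value cannot be told apart there.

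Over the 8 quadriceps groups, +3h ZT0 and +3h ZT12 had the highest means for 7 of the 8 members, all but Ankrd2, and in these 7 their libraries overlapped each other. For Ankrd1, Xirp1 and Flnc the next group below did not overlap the lower of the pair, and for Xirp2, Csrp3, Abra and Nrap it did. For all 8 members most neighbours in the order overlapped. Xirp1 and Flnc had 2 gaps between neighbours each, Ankrd1, Ankrd2, Abra and Nrap 1 each, and Csrp3 and Xirp2 none.

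In gastrocnemius Abra took opposite courses over the day under the day and night wheel schedules, and the course of Xirp1 differed between them. At ZT4, day wheel mice had more Abra, Xirp1, Xirp2 and Nrap than night wheel mice, 4 of 8, where 6.36% of the 14523 genes tested were higher. In the same comparison 3 of 5 endothelial, 2 of 7 smooth muscle and pericyte and 1 of 6 macrophage markers were lower, where 6.78% of genes were, and none of the slow fibre, fast fibre or myotendinous junction and tendon markers passed. Summed endothelial markers ran from 184 to 211 CPM in day and from 231 to 245 CPM in night wheel mice, and the part of these cells in the result was not tested. At ZT16 no member passed in edgeR, where 0.565% of genes did, with 2 at an unadjusted p under 0.05 and 1 in DESeq2 (Abra, -0.66, adjusted p = 0.029). From ZT4 to ZT16, Abra and Nrap rose under night access, 2 of 8 where 9.41% of genes rose. Abra, Xirp1 and Xirp2 fell under day access, 3 of 8 where 7.17% of genes fell.

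Abra read 83.8, 78.2, 56.3 and 94.4 CPM in night wheel mice at ZT4 and 185, 234, 236 and 161 at ZT16. In day wheel mice it read 222, 191, 286 and 224 CPM at ZT4 and 162, 107, 134 and 115 at ZT16. The lowest group was night ZT4 and the highest day ZT4, and at each schedule ZT4 and ZT16 did not overlap. The rise under night access was 1.38 (SE 0.193, adjusted p = 2.8e-04) and the change under day access -0.83 (SE 0.190, adjusted p = 0.010). Their difference, day minus night, was -2.22 (SE 0.270, adjusted p = 3.4e-04), and it lay between -2.34 and -2.09 when each library was left out in turn. At ZT4 the day wheel level exceeded the night wheel level by 1.56 (SE 0.193, adjusted p = 3.6e-04).

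Xirp1 read 133, 145, 115 and 162 CPM in night wheel mice at ZT4 and 290, 251, 330 and 232 in day wheel mice, without overlap (log2 difference 0.99, SE 0.141, adjusted p = 6.7e-04). At ZT16 it read 162, 223, 165 and 157 under night access and 164, 131, 139 and 136 under day access, with overlap. It fell by 0.95 from ZT4 to ZT16 under day access (adjusted p = 5.3e-04), whereas under night access it changed by 0.35 (SE 0.140, adjusted p = 0.10; DESeq2 0.35, adjusted p = 0.033). The difference of the time effects was -1.30 (SE 0.198, adjusted p = 0.0012), between -1.39 and -1.18 with any library left out. Day ZT4, first in the order of means, did not overlap the next group, and the other neighbours overlapped.

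Xirp2 moved the same way by far less. It read 1640, 1619, 1574 and 1632 CPM in night wheel mice at ZT4 and 1854, 1884, 1956 and 1723 in day wheel mice (0.20, SE 0.0457, adjusted p = 0.0084), and 1774, 1730, 1612 and 1668 against 1551, 1640, 1721 and 1695 at ZT16. Its fall of -0.17 under day access (adjusted p = 0.018) was lost without day ZT4 replicate 2 (-0.16) or replicate 3 (-0.14) or day ZT16 replicate 1 (-0.14). The difference of its time effects, -0.24 (adjusted p = 0.026), was lost without night ZT4 replicate 3 (-0.23) or day ZT4 replicate 3 (-0.21). For this difference 3 of the 8 members passed, all lower, where 5.07% of genes did so.

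Nrap read 1444, 1487, 1420 and 1489 CPM in night wheel mice at ZT4, below every library of the other 3 wheel groups, which ran from 1531 to 1754. The steps of 0.16 to day ZT4 (adjusted p = 0.038) and 0.17 to night ZT16 (adjusted p = 0.016) passed. The first was lost in 7 of 8 cases when 1 library was left out, all but day ZT4 replicate 4 (0.14 to 0.16, adjusted p from 0.053 to 0.094). The second was lost without night ZT4 replicate 3 (0.16) or night ZT16 replicate 1 (0.15) or replicate 4 (0.14). Ankrd1, which had the highest log2 fold change of the 8 at +3h of both treadmill sessions with all libraries included, stayed between 4.36 and 8.86 CPM in gastrocnemius. It passed in no wheel comparison, although its day ZT4 values (6.16, 8.55, 8.35 and 5.70 CPM) lay just above those of night ZT4 (5.29, 5.65, 5.06 and 4.47; 0.50, adjusted p = 0.10). Flnc (573 to 834 CPM), Ankrd2 (50.8 to 140) and Csrp3 (14.6 to 93.5) passed in none either.

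**Figure D3:**
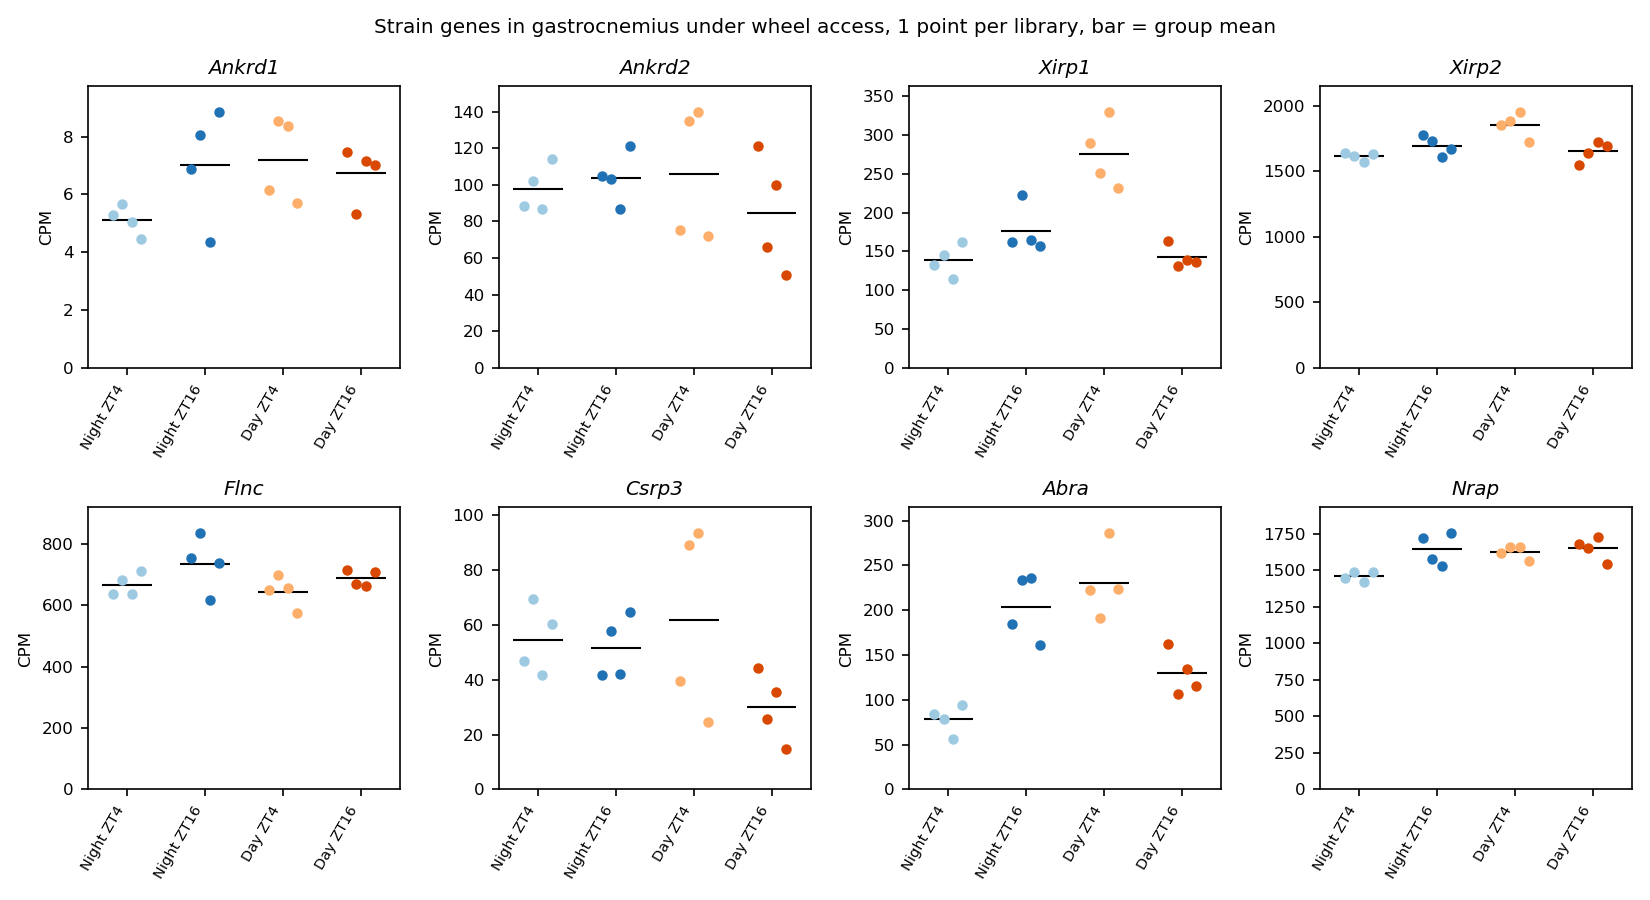
CPM (y axis, starting at 0) of each strain gene in the 16 gastrocnemius libraries by wheel schedule and sampling time (x axis), with a bar at each group mean of 4 libraries. Abra is low in night ZT4 (56.3 to 94.4 CPM) and high in night ZT16 and day ZT4, and Xirp1 is highest in day ZT4 (232 to 330 CPM).

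Csrp3 and Ankrd2 varied together and with slow fibre markers. Over the 24 quadriceps libraries, Pearson's r between the log2 levels of these genes was 0.96, and 0.96 again for deviations from the group means. With the mean log2 level of the slow fibre markers, r was 0.62 for Csrp3 and 0.70 for Ankrd2, and from 0.03 (Abra) to 0.33 (Nrap) for the other 6. In the 16 gastrocnemius libraries the values were 0.50 and 0.66, with 0.11 to 0.36 for the other 6. These are descriptions over libraries that share groups and composition. With the slow fibre score as a covariate, Csrp3 at +3h of the ZT12 session gave 1.89 (adjusted p = 0.020) in place of 1.51 (0.19), in a comparison where the summed markers were 280, 518 and 665 CPM after the run and 2687, 857 and 214 in the controls. Under the same covariate the +3h values of Ankrd1 were 4.04 and 3.13 and those of Xirp1 3.66 and 2.27, and all 4 still passed. In the direct comparison of +3h with +0h at ZT12, the covariate ended the calls of Ankrd1 (2.15, adjusted p = 0.079) and Nrap (0.48, adjusted p = 0.073).

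**Figure D4:**
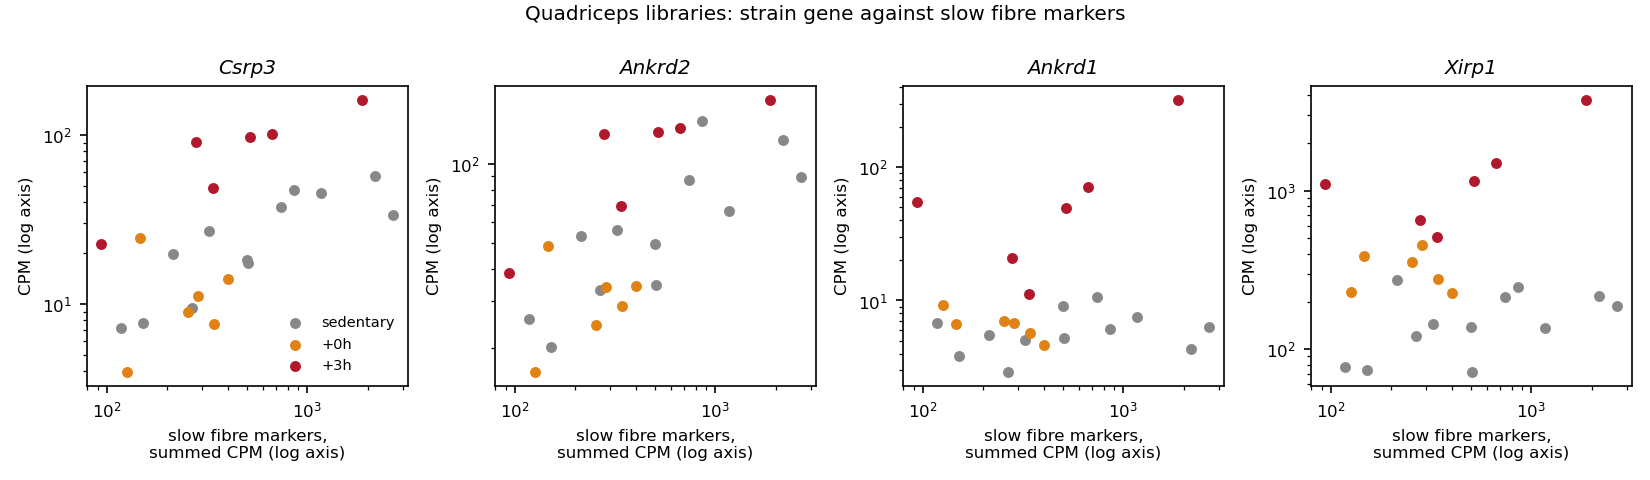
CPM of Csrp3, Ankrd2, Ankrd1 and Xirp1 (y axis, log scale) against the summed CPM of 10 slow fibre markers (x axis, log scale) in the 24 quadriceps libraries, with grey for sedentary, orange for +0h and red for +3h. Csrp3 and Ankrd2 climb with the markers (r = 0.62 and 0.70), whereas Ankrd1 and Xirp1 do so little (r = 0.14 and 0.11). These r are with the mean log2 level of the markers, not with the plotted sum. For Ankrd1 and Xirp1 all +3h libraries lie above all others. For Ankrd1 the gap is small, from 10.6 CPM (sedentary ZT0 replicate 3) to 11.2 CPM (+3h ZT0 replicate 3).

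In quadriceps Ankrd1, Flnc, Xirp1 and Abra also varied together. Pearson's r over the quadriceps libraries was 0.94 for Ankrd1 with Flnc, 0.94 for Xirp1 with Flnc and 0.90 for Xirp1 with Abra, and within groups 0.87, 0.94 and 0.94. The lowest of the 6 pairs among these 4 genes was Ankrd1 with Abra (0.72). In gastrocnemius the 4 genes were less alike. There r was 0.81 for Xirp1 with Abra and 0.52 for Ankrd1 with Flnc. It was 0.47 for Ankrd1 with Abra, 0.43 for Ankrd1 with Xirp1, 0.08 for Flnc with Abra and -0.02 for Xirp1 with Flnc. In quadriceps Nrap stood between the sets, with 0.80 for Flnc and 0.78 for Csrp3. Xirp2 had its highest quadriceps values with Nrap (0.78) and Ankrd1 (0.74). Xirp2 was least tied to the slow fibre pair within groups (0.19 with Csrp3). The genes outside the set most like the mean profile of the 8 members, each with r from 0.92 to 0.95, were the histone methyltransferase Dot1l, the actin regulator Enah, the deubiquitinases Otulin and Usp28, Mustn1, 2310057M21Rik, the LIM protein Lmcd1 and the endocytic protein Ehd4. By Spearman's correlation 2 of these 8 remained. For single members, Ankrd1 was closest to Usp28 and Mustn1 (0.97 each) and Klhl40 (0.95), and Flnc to the antioxidant enzyme Srxn1 and Dot1l (0.97 each) and Otulin (0.96). Xirp1 was closest to Bag3, Hspa4 and the amino acid transporter Slc38a2 (0.95 each), and Abra to Bag3 (0.93), Dnajb4 and Ifrd1 (0.89 each). Ankrd2 was closest to Klhl34 (0.95), the small heat shock protein Hspb7 and the Z-disc actinin Actn2 (0.92 each), and Csrp3 to Hspb7 (0.95), Klhl34 (0.90) and Lmcd1 (0.89). Nrap was closest to Ccdc136 (0.93), Lrrc2 (0.92) and the thin filament protein Lmod2 (0.88), and Xirp2 to Rnf222 (0.83), Usp28 (0.81) and Spag9 (0.79).

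Genes that Abra is known to act through, those of the actin, MRTF and SRF pathway, took another course. For the lists that follow, the share of all genes that rose was 4.29% at +0h of the ZT0 session, with the other shares as given above, and the share that fell at +3h was 6.63% in the ZT0 and 8.53% in the ZT12 session. Of 20 such genes 8 rose and 0 fell at +0h of the ZT0 session (median log2 fold change 0.23, against 0.000 over all genes tested), and 6 rose and 0 fell at +0h of the ZT12 session (0.24). Actg1, a cytoplasmic actin, rose by 0.92 and 1.16 (adjusted p = 2.4e-04 and 2.9e-05), and the focal adhesion protein Zyx by 0.83 and 0.93. At +3h 4 rose and 5 fell in the ZT0 session (0.04), and 3 rose and 5 fell in the ZT12 session (0.01). Actb fell by 0.58 and 0.62 there (adjusted p = 7.3e-04 and 2.5e-04), and the coactivator gene Mrtfa by 0.69 and 1.08. From +0h to +3h, 7 of the 20 fell and 1 rose in the ZT0 session, where 7.80% of genes fell, and 6 fell and 3 rose in the ZT12 session, where 8.47% fell. Over the same interval, as given above, 6 strain genes rose in each session.

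**Figure D5:**
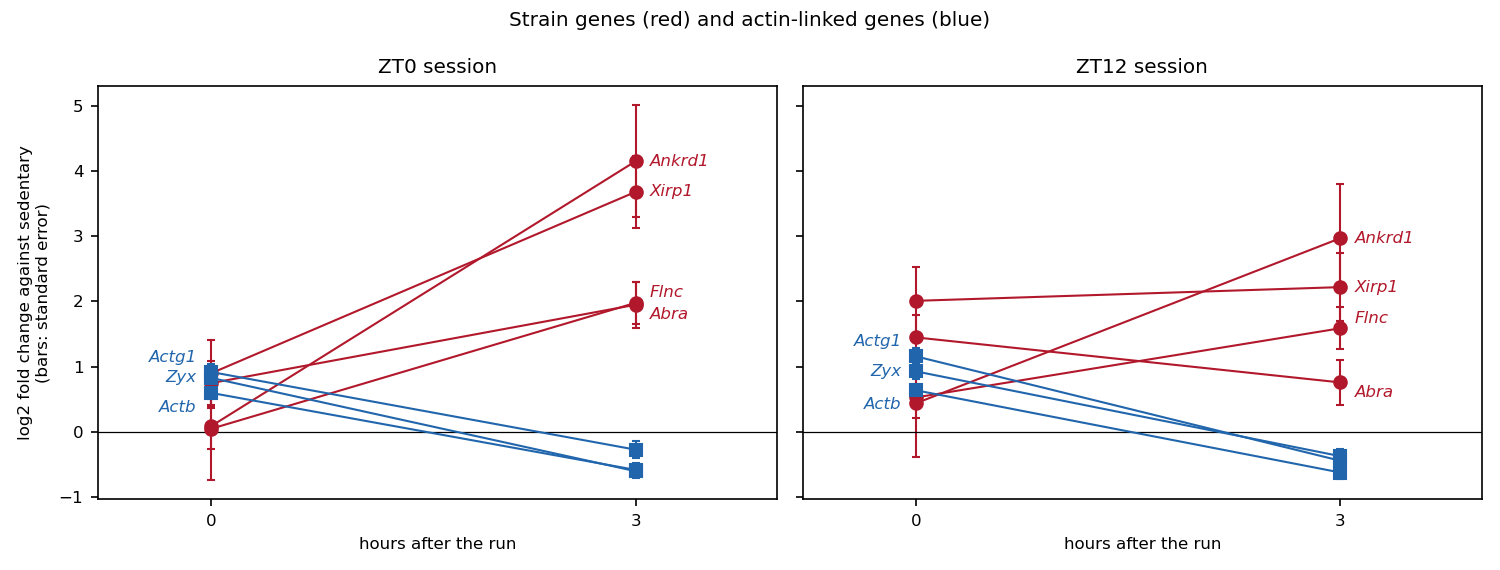
Log2 fold change against sedentary quadriceps (y axis, bars are standard errors) at 0 and 3 hours after the run (x axis) in each session, for 4 strain genes (red) and 3 actin-linked genes (blue). Ankrd1 and Flnc climb between the time points in both sessions and Abra goes from 0.75 to 1.95 and from 1.45 to 0.76, while Actg1, Zyx and Actb are above 0 at the end of the run and below 0 at 3 hours.

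The next list held 28 genes whose products meet the strain proteins at titin and the Z-disc. Of these, 1 rose and 0 fell at +0h of each session, near the 4.29% and 3.19% of all genes that rose. In both cases it was Csrp1 (0.61 and 0.66), a LIM protein related to Csrp3. At an unadjusted p under 0.05 there were 7 in the ZT0 and 5 in the ZT12 session. DESeq2 called 2 higher and 1 lower in the ZT0 session, and 2 higher and 0 lower in the ZT12 session. At +3h 4 rose and 0 fell in the ZT0 session (median 0.14), namely Mypn (0.55), the caveola protein Cavin4 (0.71), Pdlim5 (0.32) and Pdlim3 (0.45). In the ZT12 session 7 rose and 1 fell (0.05). Myopalladin, the product of Mypn and a binding partner of Ankrd1, had the smallest p in both (0.53 in the ZT12 session, adjusted p = 1.2e-04). The gene that fell, Synpo2l, did so by 0.87 (adjusted p = 7.3e-04).

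Among 13 genes of the chaperone route that clears unfolded filamin, 1 rose at +0h of the ZT0 session, 4 at +0h of the ZT12 session, 7 at +3h of the ZT0 session (median 0.91) and 2 at +3h of the ZT12 session (0.30), with 0 fallen in each. Without +3h ZT0 replicate 1 the median of 0.91 was 0.40, with 6 called. Bag3 rose by 1.41 (SE 0.280, adjusted p = 0.0027) and Hspb8 by 0.91 at +3h of the ZT0 session, beside the rise of Flnc. In the ZT12 session, where Flnc rose too, the called genes were Sqstm1 (0.59) and Dnajb6 (0.36). In the wheel experiment 5 of the 13 passed for the difference of time effects, all lower like Abra and Xirp1, among them Hspa1b (-3.61), Hspa1a (-3.05), Hspb1 (-0.82) and Hspa8 (-0.39). Hspa1a and Hspa1b are near-identical copies, and their separate values are uncertain.

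Of 19 genes of the YAP, TAZ and TEAD pathway, whose factors bind the MCAT letters, 2 rose at +0h of the ZT0 session and 3 at +0h of the ZT12 session. Ccn2, a growth factor of the matrix and a usual target, rose by 1.47 and 1.59 (adjusted p = 0.042 and 0.036). At +3h 2 rose and 2 fell in the ZT0 session, and 1 rose and 3 fell in the ZT12 session, with the inhibitor gene Amotl2 lower in both (-0.97 and -0.79). Without +3h ZT0 replicate 1, 1 call was left in the ZT0 session. Under wheel access Ccn2 was higher in day than in night mice at ZT4 (0.87, adjusted p = 0.0020) and lower at ZT16 (-0.92, adjusted p = 0.014), and its time effects differed by -1.79 (adjusted p = 1.4e-04). Of 20 genes of the membrane and costamere, which tie the Z-disc to the matrix, 2 rose at +0h of the ZT0 session and 0 changed at +0h of the ZT12 session by edgeR, with 4 at an unadjusted p under 0.05 and 0 in DESeq2. At +3h 2 rose and 1 fell in each session, with the adaptor gene Lims1 lower in both (-0.41 and -0.34).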

How the data were processed

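The members and the 5 pathway and 12 marker lists were chosen with earlier results of these data known. Gene-level estimated counts, which the authors deposited as 1 column per sequencing lane (80 in all), came from poly(A)-selected, stranded libraries, per the labels' protocols. The submitters' processing notes name kallisto 0.46.2, DESeq2 1.26.0 and bcl2fastq 2.20.0.422 beside the assemblies mm10 and GRCm38.p6. The step from transcripts to genes is not given in the sources available. kallisto divides ambiguous reads among transcripts, so near-identical genes are uncertain.

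Lane values were added per library and rounded, and 23614 of 23621 identifiers matched a symbol in a RefSeq gene table. Genes were tested with edgeR 4.0.16 (quasi-likelihood, robust, TMM, default filter with a minimum count of 10; limma 3.58.1, R 4.3.3), 1 fit per tissue, with Benjamini-Hochberg adjustment over all genes tested and a threshold of 0.05. Adjusted p values come from this test unless DESeq2 (1.42.0) is named. CPM are TMM-scaled. The scripts were tested on simulated data. Replicates carry different tags in the labels and were read as separate animals, so p-values measure the spread between these libraries. Totals of 27352875 to 79491649 counts put counting error well under the spread between replicates for most members, and Ankrd1 rests on the fewest reads per length.

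All 8 members were named in every comparison. From each pathway list up to 4 called genes with the smallest p were named, less 1 result that is not reported here, and the genes of most like pattern were those with the highest Pearson correlation of log2 CPM (prior count 2) over the 24 quadriceps libraries. Alternatives were DESeq2, its size factors in edgeR, no filter, a replicate block, only the groups compared, a slow fibre score as covariate, each lane alone, each library left out, and another sedentary control.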

Additional observations from a re-analysis of the deposited data

Results flagged for a closer look

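Xirp1 in night wheel ZT16 replicate 2 read 223 CPM, beyond Dixon's limit for 4 values (gap over range 0.863, limit 0.829), with the other 3 libraries at 157 to 165 CPM. This was 1 of 32 such groups examined, and chance flags about 1 in 20. The 3 members Abra, Xirp1 and Xirp2 had time effects that differed between the wheel schedules by the test of the difference itself, with values of -2.22, -1.30 and -0.24 (edgeR adjusted p = 3.4e-04, 0.0012 and 0.026).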

How the results depend on the processing

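Over 8 members and 16 comparisons, DESeq2's size factors changed none of the 128 calls. DESeq2 itself added 8, no filter on low counts ended 1, lane L001 alone ended 1 and lane L002 alone 2, and the slow fibre score added 2 and ended 3. Fitting only the groups compared added 7 and ended 13: it left 0 members called at +3h of the ZT0 session and 0 for +3h against +0h there, and gave 5 at +3h of the ZT12 session, 3 among the sedentary groups, 1 for sedentary ZT12 against ZT0 and 2 for sedentary ZT16 against ZT4. DESeq2 called 3 among the sedentary groups, 2 for sedentary ZT12 against ZT0 and 1 for day against night access at ZT16, and the slow fibre score left 1 for ZT16 against ZT4 under night access. With sedentary ZT16 as control, +0h of the ZT12 session had 0 members called, and Lats2 (-0.08), Vgll4 (-0.18), Hspa8 (-0.03) and Hspb1 (-0.02), called higher against sedentary ZT12, changed sign. With sedentary ZT12 as control, +3h of the ZT12 session had 6 called. Here the other control's own level is the change in construction; for the other settings the cause was not tested.

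With 1 library left out in turn, the members called ran from 0 to 2 at +0h of the ZT12 session, from 1 to 6 for +3h against +0h of the ZT12 session, from 0 to 2 among the sedentary groups, from 0 to 1 for sedentary ZT12 against ZT0, from 0 to 1 for sedentary ZT16 against ZT4 and from 1 to 4 for ZT16 against ZT4 under night access. Where this left 2 libraries in a group, the spread was pooled over all groups.

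In no comparison did every same-numbered pair of libraries deviate together with a correlation over 0.1 (range -0.38 to 0.31). With 3 or 4 libraries per group this rule cannot exclude pairing. For day against night wheel access at ZT4 the correlations ran from 0.02 to 0.15. A fit with the replicate block ended 4 of the 128 calls, left 1 member called at +0h of the ZT12 session, in place of 2, and gave 4 at +3h of the ZT0 session, in place of 6. Depth limits Ankrd1 most, with a median of 6.78 CPM in quadriceps.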
